A study of Mus musculus with 8 samples.

Results

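The peaks described here were the KLF13 peaks far from annotated gene starts, namely those that the authors' annotation gives as distal intergenic and that lie over 25 kb from the nearest transcription start site (TSS), on either side. This rule took 360 of the 9506 peaks in the deposited list, or 3.79%. They were assigned to 290 genes and covered 180.5 kb of the GRCm38 mouse genome, against 6639 kb for all peaks. The rule used position and annotation only, so the strength of the peaks was not part of it.

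The study mapped KLF13 in HT22, a line of immortalised mouse hippocampal neurons. The engineered cells, HT22-BirA, carry the biotin ligase BirA of bacteria, and all were transfected with a plasmid, pTO-Klf13Bio, for KLF13 in a form that BirA biotinylates. The 4 KLF13 ChSP libraries came from chromatin precipitated on streptavidin 24 h later, a procedure called chromatin streptavidin precipitation (ChSP), and the 4 input libraries from chromatin of the same kind with no precipitation. KLF13 was therefore added to the cells' own, the labels number the libraries without saying that they came from separate cultures, and no precipitation from cells without tagged KLF13 was analysed here, so capture of other biotinylated or sticky chromatin cannot be told apart from KLF13 at these sites. The deposited list gives each peak 1 fold (ChSP over input, a linear ratio) and 1 p-value over all 8 libraries. Spread between replicates and read depth are unknown, no value below has a replicate error, and no difference between classes of peaks was tested, since peaks are not replicates. Intervals cover counting error over peaks only.

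KLF13 is a Krüppel-like factor, a zinc finger protein that binds GC-rich boxes and CACCC boxes in DNA and often represses transcription through SIN3 and histone deacetylases. In neurons it is known as a partner and close relative of KLF9 and as a brake on axon growth. Such factors are best known at promoters. Sites far from an annotated TSS can be enhancers, silencers or insulators, but they can also be promoters that a gene annotation lacks, or repeated DNA that maps poorly.

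No genome sequence was used here, but RefSeq promoter windows (GRCm38.p6), which run from 250 bases before to 50 after a transcript start, lay wholly within 14 of the peaks. The windows under the 6 of these peaks with the highest folds are shown because they are the DNA beneath the strong distant peaks that can be read. Capitals mark GC boxes (GGGCGG) and CACCC boxes (GGGTGTGG or GGGCGTGG), each on either strand. Overlapping matches run together in capitals, and a longer GC box counts as a GC box too.
Gm41854, chr19:44672167-44672466, plus strand: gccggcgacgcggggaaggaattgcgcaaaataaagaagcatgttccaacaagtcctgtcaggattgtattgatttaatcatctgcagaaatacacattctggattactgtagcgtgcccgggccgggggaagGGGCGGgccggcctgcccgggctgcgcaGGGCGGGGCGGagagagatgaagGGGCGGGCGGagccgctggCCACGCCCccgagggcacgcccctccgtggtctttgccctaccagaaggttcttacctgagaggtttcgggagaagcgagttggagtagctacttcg
Gm34507, chr17:4908072-4908371, plus strand: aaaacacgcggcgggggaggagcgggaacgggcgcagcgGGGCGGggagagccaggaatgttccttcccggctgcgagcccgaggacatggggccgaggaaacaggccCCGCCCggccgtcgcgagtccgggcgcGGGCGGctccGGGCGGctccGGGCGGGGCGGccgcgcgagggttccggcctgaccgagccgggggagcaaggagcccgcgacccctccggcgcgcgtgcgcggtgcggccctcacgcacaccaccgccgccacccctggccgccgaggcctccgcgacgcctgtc
Sgms2, chr3:131490181-131490480, minus strand: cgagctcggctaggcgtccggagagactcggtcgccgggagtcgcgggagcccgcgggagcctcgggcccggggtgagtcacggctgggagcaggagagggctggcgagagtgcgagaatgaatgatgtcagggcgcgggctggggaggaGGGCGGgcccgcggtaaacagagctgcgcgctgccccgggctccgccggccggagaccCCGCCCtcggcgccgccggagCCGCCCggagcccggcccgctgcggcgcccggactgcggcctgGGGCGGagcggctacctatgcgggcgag
Arhgap32, chr9:32032053-32032352, plus strand: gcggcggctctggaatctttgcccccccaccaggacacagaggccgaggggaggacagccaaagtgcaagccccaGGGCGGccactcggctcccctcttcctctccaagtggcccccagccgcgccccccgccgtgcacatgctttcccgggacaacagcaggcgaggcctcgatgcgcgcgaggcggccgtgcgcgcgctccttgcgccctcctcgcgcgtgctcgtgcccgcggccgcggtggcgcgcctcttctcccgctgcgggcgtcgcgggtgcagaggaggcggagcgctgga
Crybg3, chr16:59600998-59601297, minus strand: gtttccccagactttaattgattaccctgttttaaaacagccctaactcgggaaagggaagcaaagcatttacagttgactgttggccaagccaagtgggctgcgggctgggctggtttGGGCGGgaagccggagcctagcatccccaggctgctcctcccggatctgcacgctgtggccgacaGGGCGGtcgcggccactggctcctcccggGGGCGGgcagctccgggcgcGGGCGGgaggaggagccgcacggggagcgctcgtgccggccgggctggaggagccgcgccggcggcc
6430573P05Rik, chr3:79286605-79286904, plus strand: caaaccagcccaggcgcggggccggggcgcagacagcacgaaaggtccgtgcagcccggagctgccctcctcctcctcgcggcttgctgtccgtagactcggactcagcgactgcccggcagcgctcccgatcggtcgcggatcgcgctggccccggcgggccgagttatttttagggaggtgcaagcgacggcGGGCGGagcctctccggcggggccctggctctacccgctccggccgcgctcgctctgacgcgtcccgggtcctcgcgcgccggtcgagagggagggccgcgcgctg

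Each of the 14 peaks held at least 1 GC box in its window. The window of Gm34507, under a peak assigned to Arid1b, had 6 GC boxes and 79.3% G and C bases. The window of Gm41854, under a peak assigned to Pax2, had 5 GC boxes and 1 CACCC box at 61% G and C. Sgms2 and Crybg3 had 4 GC boxes each, and Arhgap32 and 6430573P05Rik had 1 each. Counting every window that lay wholly under a distant peak, including several starts of 1 gene, 16 of 16 held a GC box (exact 95% binomial interval 79.4 to 100%). The share was 91.9% of the 3295 windows under peaks within 1 kb of a TSS and 35.7% of all 32851 windows. CACCC boxes were in 18.8% of the windows under distant peaks, 17.1% of those under promoter peaks and 8.58% of all windows. The longer GC box (GGGGCGGGG) was in 3 of the 16 windows under distant peaks (18.8%, 4.05 to 45.6%), in 41.5% of those under promoter peaks and in 11.4% of all windows. The median G and C content was 73.7%, 72.7% and 52.7% in these sets. Among shorter boxes searched on both strands, AP-1 (TGANTCA) matched 2 of the 16 windows, against 2.19% of windows under promoter peaks and 7.81% of all windows. TEAD (GGAATG) matched 1, against 7.07% and 14.7%. The E-box (CACGTG) had no match in these 16, which allows a share of up to 20.6% (exact 95% limit), against 10.9% and 7.15%. The same holds for the box TATAAA, which is in 2.94% of windows under promoter peaks and 13.6% of all windows. A match describes the letters of these windows and is no evidence of binding.

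The first question was how strong the distant peaks were. Their median fold was 15.9 (quartiles 10.1 and 21.2, 95% interval of the median 15.1 to 17.03). The medians were 18.2 for the 338 intergenic peaks within 25 kb, 16.7 for the 337 intronic peaks and 22.2 for the 7599 promoter peaks within 1 kb of a TSS. A fold of at least 20 was reached by 110 of the 360 distant peaks (30.6%, exact 95% interval 25.8 to 35.6%), against 54.7% of all peaks. The share was 41.4% among intergenic peaks within 25 kb, 32.6% (27.7 to 37.9%) among intronic peaks and 59.8% among promoter peaks. At the low end, 74 distant peaks (20.6%, 16.5 to 25.1%) had a fold under 8, against 2.51% of all peaks. Distant peaks thus made up 31.0% of the 239 peaks of the list with a fold under 8. The low share was 11.8% among intergenic peaks within 25 kb, 11.9% among intronic peaks and 0.855% among promoter peaks. Distant peaks were 400 bp wide in the median (200 to 6300 bp), against 700 bp for promoter peaks, and their median p, by the authors' test, was 2.38e-08 against 4.18e-13.

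**Figure D1:**
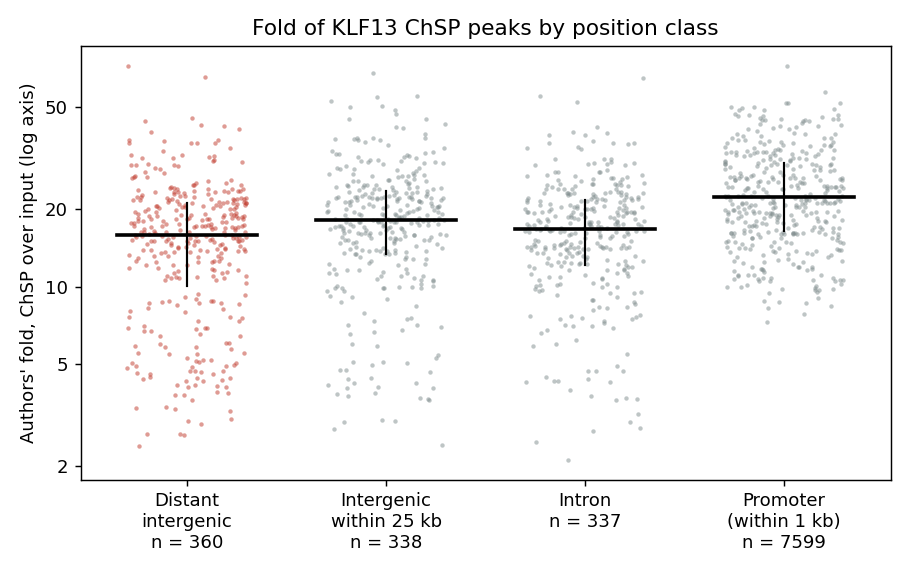
The authors' fold of ChSP over input (log axis) is plotted for each class of peak, with a thick line at the median and a thin line between the quartiles; for promoter peaks 400 randomly drawn points are shown, the lines being over all 7599. The distant intergenic peaks have a median of 15.9 and a tail of 74 peaks under a fold of 8, while the promoter peaks have a median of 22.2.

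The strongest distant peak had a fold of 72.5. It lay at chromosome 5, 111701601 to 111702200, 59.5 kb downstream of the TSS of the unnamed gene model E130006D01Rik. The nearest start in the RefSeq windows was 5.54 kb away. The next, with 65.8, lay upstream of Rassf8, a Ras association domain gene. By RefSeq this peak lay inside the bounds of Rassf8 and 1.17 kb from a start. These 2 peaks stood above the remaining ones, of which the highest had a fold of 45.4.

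Arid1a and Arid1b encode alternative DNA-binding subunits of the BAF remodeller, the mammalian SWI/SNF complex. A peak 56.4 kb upstream of Arid1a, at chromosome 4, 133813201 to 133814500, reached 45.4 (the authors' p = 1.30e-21). A peak 86.5 kb upstream of Arid1b, at chromosome 17, 4907901 to 4908600, reached 42.3 (the authors' p = 1.10e-23). Both genes also had promoter peaks, with folds of 41.6 at Arid1a and 34.2 at Arid1b. The Arid1b peak covers the start of the long noncoding RNA gene Gm34507, whose sequence is given above.

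The other peaks among the 12 highest folds were assigned to Nlgn3, Pax2, Foxe1, Tln2, 4930517M08Rik, Fgfr3, Egr1 and Papss1. Nlgn3 encodes neuroligin 3, an adhesion protein of the postsynaptic membrane, and had a peak with a fold of 44.0 lying 32.0 kb downstream of its TSS on the X chromosome. Tln2, which encodes a talin linking integrins to actin, had a fold of 40.1 at a peak 74.0 kb upstream, inside the RefSeq bounds of the gene. Fgfr3, a fibroblast growth factor receptor gene, had 37.1 at 25.7 kb upstream. Egr1, an immediate early gene induced by neuronal activity, had 36.8 at 25.9 kb downstream, beside a promoter peak of 33.0. The developmental regulators Pax2 and Foxe1 had 42.7 and 41.1. 4930517M08Rik had 37.3, and Papss1, which makes the cell's sulfate donor, had 36.4.

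The second question was whether these sites are far from every known gene start. Starts in the RefSeq promoter windows, which include noncoding and predicted transcripts, were set against the 341 distant peaks outside chromosome 18. The windows lack some starts that the authors' annotation holds. At the Golga7 peak the nearest window start was 244.6 kb away, against 32.3 kb to the authors' TSS. Starts near peaks can therefore be undercounted, and the shares cannot show that a peak is far from every start. A window start lay within 1 kb of 45 of the 341 peaks (13.2%, exact 95% interval 9.79 to 17.3%) and under 28. The share was 12.01% for intergenic peaks within 25 kb, 7.60% for intronic peaks and 79.6% for promoter peaks. In addition, 146 of the 360 distant peaks (40.6%) overlapped the bounds of some RefSeq gene, and 65 (18.1%) those of a protein-coding gene. For the 146 the label intergenic holds in the authors' annotation and not by RefSeq gene bounds, and all are kept here under the authors' rule. At some of them, such as the Gria4 peak, the only RefSeq gene is a pseudogene. Shares within gene bounds were not computed for other classes of peaks, so they cannot be called particular to distant peaks.

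**Figure D2:**
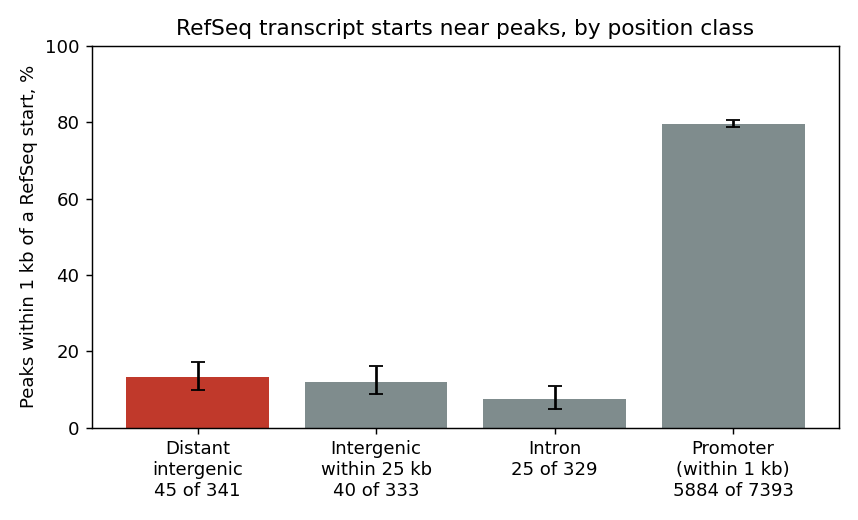
Bars give the share of peaks within 1 kb of a start in the RefSeq promoter windows in each class, outside chromosome 18, with exact 95% binomial intervals. The share is 13.2% of distant intergenic peaks and 79.6% of promoter peaks.

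Of those 45 peaks, 19 lay near a start of a protein-coding gene and 26 near noncoding starts alone. In 4 of the 45 the start belonged to the gene to which the authors had assigned the peak from over 25 kb away: Arhgap32, Fat3, Cplx2 and 4930503B20Rik. Arhgap32 reached 31.9 on chromosome 9, 32032001 to 32033100. Fat3, an atypical cadherin gene, had 19.1, and Cplx2, which encodes a complexin that tunes synaptic vesicle fusion, had 18.2. For the rest the start belonged to a different gene. The peak assigned to Papss1 covered a start of Sgms2, a sphingomyelin synthase gene, and reached 36.4 on chromosome 3, 131489801 to 131490600. The peak assigned to Zmat3 covered a start of Pik3ca, the catalytic subunit of PI3 kinase, with 33.7 on chromosome 3, 32397001 to 32397900. The peak assigned to Arl6 covered a start of Crybg3, with 31.1, and the peak assigned to Btf3l4 a start of Zfyve9, which anchors SMAD proteins, with 28.7. A start of Lingo1, a subunit of the Nogo receptor that restrains axon growth, lay under a peak with a fold of 17.2 that is assigned to Odf3l1. B3galt1, Dchs2 and Hmcn2 starts lay under peaks with folds of 20.6, 17.5 and 12.9.

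Peaks with a RefSeq start within 1 kb had a median fold of 18.3 (95% interval 16.3 to 21.3). The 296 with none in the windows had 15.6 (14.8 to 16.8). A fold of 20 was reached by 42.2% (27.7 to 57.8%) and 29.1% (23.9 to 34.6%). A fold under 8 was seen at 1 of the 45 (2.22%, 0.0562 to 11.8%), at 4930503B20Rik with 7.01. It was seen at 68 of the 296 (23.0%, 18.3 to 28.2%), against 2.51% of all peaks. Without the X chromosome stretch described next, which holds 26 of the 68, the count was 42 of 270 (15.6%, 11.4 to 20.4%). Low-fold peaks often lay close together and are not independent. Such intervals are therefore too narrow, and the difference was not tested.

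Low-fold peaks often lay near other distant peaks. Of the 74 peaks under a fold of 8, 57 (77.0%) had another distant peak within 50 kb. The figure was 18 of the 110 with a fold of at least 20 (16.4%) and 113 of all 360 (31.4%). The X chromosome stretch described next holds 26 of the 74. Some neighbours lay less than 1 kb apart, as at Lrrc4c among the low folds and Stox2 among the high folds. The largest gathering was on the X chromosome. In a stretch picked out after its peaks were seen, 63 peaks of all classes, with gaps of at most 150 kb, filled 1.46 Mb from 162622301 to 164081300, and 26 of them were distant intergenic peaks. All 26 had folds between 3.04 and 6.40, with a median of 4.62 and a median width of 300 bp. They were assigned to Grpr (12 peaks), which encodes the gastrin-releasing peptide receptor, S100g (5), Rnf138rt1 (5), Rbbp7 (2), Reps2 (1) and Ap1s2 (1). The 11 distant peaks elsewhere on X had folds between 13.8 and 44.0, so the 2 sets did not overlap.

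Low folds were also found in the other classes of the stretch. Its 28 peaks of other classes had a median of 4.33, and its 9 promoter peaks a median of 6.05, against 22.2 for promoter peaks of the whole list. The promoter folds ran from 2.54 to 18.3, led by Syap1, Rbbp7, which encodes a histone-binding protein found in SIN3 and NuRD complexes, and Reps2. Rbbp7 had the smallest p of the whole list, 1.79e-82, at a fold of 17.4, and 5 of the 12 smallest p-values fell in this stretch. The list gives no read numbers for these peaks. Distant peaks were 15.2% of the peaks on X, the highest share of any chromosome, and 6.11% of those outside the stretch.

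**Figure D3:**
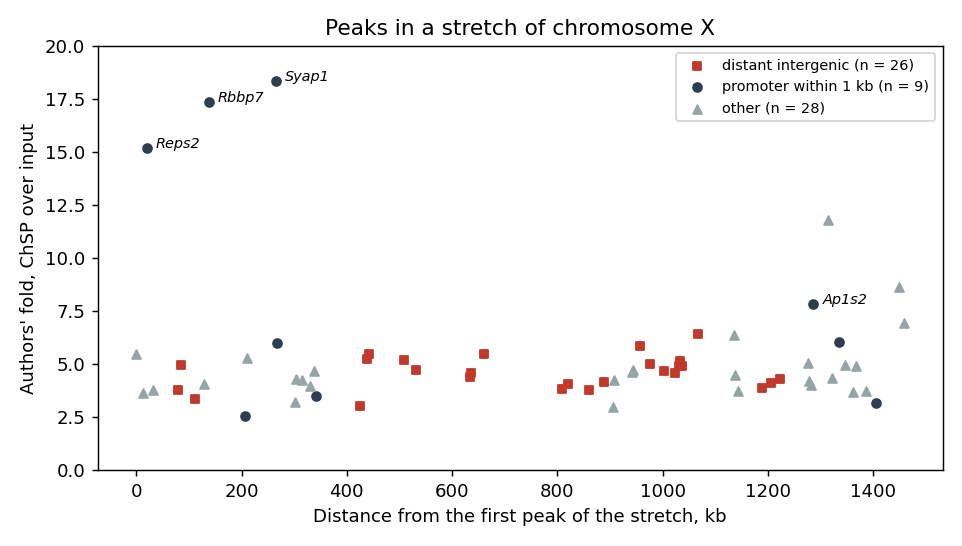
The authors' fold of each of the 63 peaks in the X chromosome stretch is plotted against distance from its first peak, with distant intergenic peaks as squares, promoter peaks as circles and other classes as triangles. The 26 distant peaks lie between 3.04 and 6.40, among the 28 peaks of other classes with a median of 4.33 and the lower promoter peaks, and under the strongest promoter peaks of Reps2, Rbbp7 and Syap1.

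**Figure D4:**
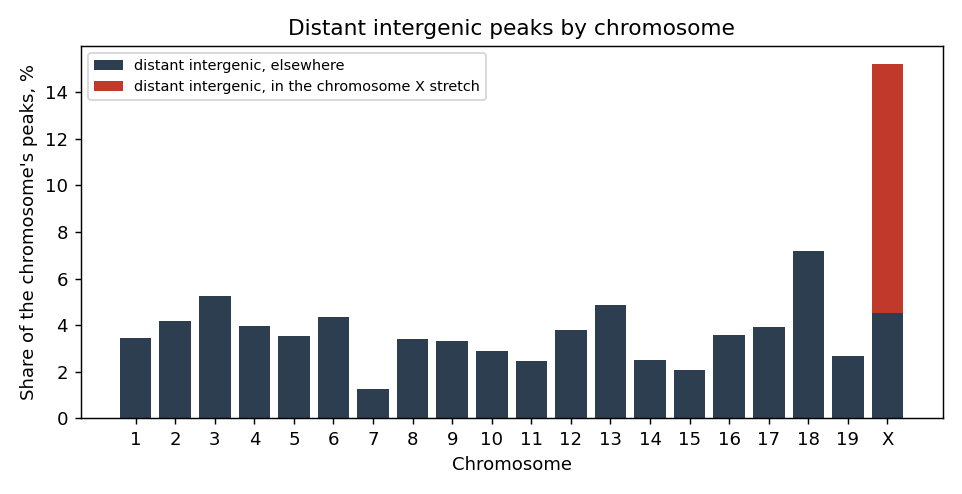
Bars give distant intergenic peaks as a share of all peaks on each chromosome, the X stretch being coloured apart. Chromosome X reaches 15.2% with the stretch, chromosome 18 has 7.20% and chromosome 7 has 1.27%.

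Smaller gatherings held many of the other 48 low-fold peaks, whose median fold was 5.13. The 5 peaks farthest from a TSS in the authors' annotation, 1195 to 1199 kb downstream of Lrrc4c, a netrin-G ligand gene, lay side by side within 5 kb of chromosome 2, 98662501 to 98667500, and had folds of 4.28 to 5.05. Their nearest starts in the RefSeq windows were 42.9 to 47.2 kb away. By those windows the Kcnb2 peak, at 1231 kb, was the farthest outside chromosome 18. That peak lay 25.3 kb from the authors' Kcnb2 TSS and inside the RefSeq bounds of Kcnb2, so the windows lack this start. The lowest fold of all, 2.40, belonged to 1 of 3 peaks within 1.9 kb of chromosome 18, 3004301 to 3006200, assigned to the vomeronasal receptor gene Vmn1r238. A pair upstream of the complement receptor gene Cr2, on chromosome 1, 195241401 to 195242100, had 2.63 and 3.33, and 3 peaks within 1.3 kb of chromosome 3 assigned to Gm6194 had 2.65, 2.93 and 4.07. A peak assigned to 2810429I04Rik on chromosome 13 had 2.66. Peaks that start below 3.5 Mb, where the assembled part of mouse chromosomes begins beside the centromere, made up 13 of the 360 distant peaks (3.61%) on 5 chromosomes, against 0.537% of all peaks, and 11 of the 13 had a fold under 8.

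The widest and most significant distant peak lay over ribosomal RNA sequence. It spanned 6300 bp of chromosome 17, 39842801 to 39849100, with a fold of 5.19 and the authors' p of 5.08e-55, and was assigned to the pheromone gene Esp38, 101.4 kb away. RefSeq places Rn18s-rs5, an 18S ribosomal RNA related sequence, and the noncoding RNA gene AY036118 there. Next by p came the peaks over the starts of Zfyve9 (3.78e-30), 6430573P05Rik (4.86e-27) and Sgms2 (2.24e-24), followed by the Arid1b peak. Other wide peaks were 2600 bp at Gm5458, with a fold of 4.65, 1800 bp at Lncppara with 32.3, 1700 bp at Ly6c2 with 3.63, and 1400 bp at Kalrn, a guanine exchange factor of dendritic spines, with 34.7. Large width therefore went with both high and low folds.

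The other 286 distant peaks, chosen by a fold of at least 8, had a median of 17.9. Leaving out the X stretch alone, the median was 16.8 over 334 peaks and 32.9% reached a fold of 20. Outside the X stretch the median fold was 16.9 at 25 to 50 kb (129 peaks), 16.96 at 50 to 100 kb (118), 17.2 at 100 to 200 kb (52) and 15.1 beyond 200 kb (35), with 95% intervals that overlap. The share with a fold under 8 over the same peaks was 10.9% (exact 95% interval 6.06 to 17.5%), 10.2% (5.37 to 17.1%), 19.2% (9.63 to 32.5%) and 34.3% (19.1 to 52.2%). Without the 5 neighbouring Lrrc4c peaks the farthest bin had 7 of 30 under 8 (23.3%, 9.93 to 42.3%). Neighbouring peaks are not independent, so these intervals are too narrow, and the difference between bins was not tested. Upstream peaks numbered 202 (56.1%), with a median fold of 16.96 (15.2 to 18.3), and downstream peaks 158, with 15.3 (14.5 to 16.3).

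**Figure D5:**
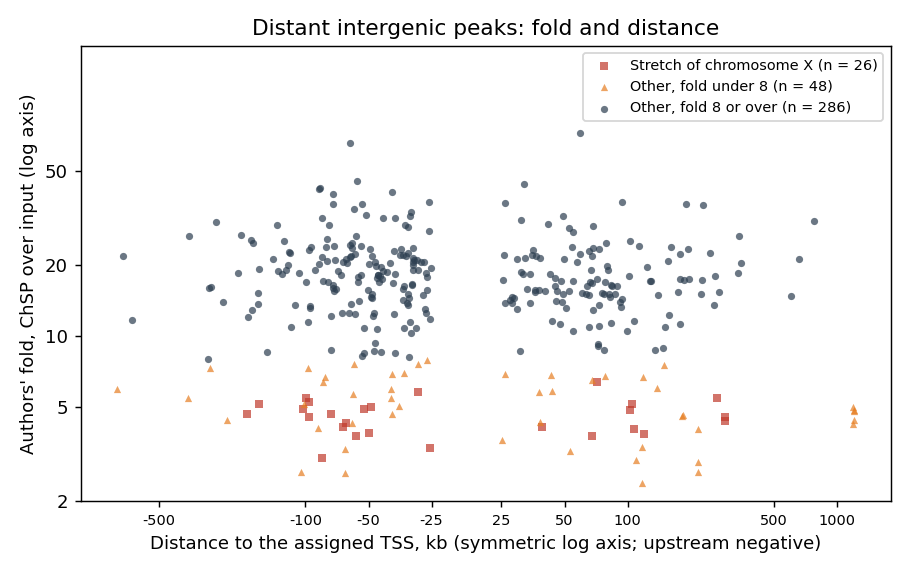
Each distant intergenic peak is plotted by its distance to the assigned TSS (kb, symmetric log axis, upstream negative) and the authors' fold (log axis). The 26 peaks of the X stretch and the 48 other peaks under a fold of 8 are drawn apart from the remaining 286, a division set by the fold of 8 itself, and they make up 14.2% of the peaks at 25 to 50 kb and 39.5% of those beyond 200 kb.

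At the edge of the rule, the 4 peaks just over 25 kb were assigned to Ly6c2, Kcnb2, Mir152 and Fzd9, with folds of 3.63, 19.5, 17.3 and 11.8. The 4 intergenic peaks just under it were assigned to Mir7213, Ly6c2, Adgrl1 and 4930556L07Rik, with folds of 5.05, 2.78, 20.6 and 68.1. The 2 Ly6c2 peaks are neighbours on chromosome 15 that the 25 kb line parts.

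A further question was which genes the distant peaks were assigned to. The assignment is to the nearest TSS and does not show that a site acts on that gene. Of the 360 peaks, 160 (44.4%, exact 95% interval 39.2 to 49.7%) were assigned to a gene that also had a promoter peak, against 45.9% (40.5 to 51.3%) of intergenic peaks within 25 kb. For those 160, the median fold was 17.002 at the distant peak and 22.9 at the gene's strongest promoter peak. The distant peak was the higher in 49. Genes with several distant peaks enter more than once, each time with the same promoter fold. Where a gene's promoter fold is given beside a distant peak, it is that of this strongest promoter peak.

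Developmental transcription factor genes, chosen by symbol, took 17 of the distant peaks (4.72%, exact 95% interval 2.77 to 7.45%), against 3.33% of all peaks. The 17 were assigned to 13 genes, so some genes count more than once. Of the 17, 16 were assigned to a gene with a promoter peak, the exception being Sox17, against 44.4% of all distant peaks. The symbol prefixes leave out other genes of this kind, so this count depends on them. Of genes left out, Osr1, Dlx2 and Nhlh2 had distant peaks and no assigned promoter peak, while others, such as Dlx4, Barx1 and Tfap2c, had one. A fold of at least 20 was reached by 9, of which 3 were Pax2 peaks, where 30.6% of distant peaks and 54.7% of all peaks did. Pax2, a regulator of kidney, eye and midbrain development, had 3 upstream peaks, with folds of 42.7 at 84.8 kb, 24.3 at 72.8 kb and 21.6 at 30.8 kb. Its promoter fold was 22.5. The strongest of the 3 covers the start of Gm41854, whose window is given above. Foxe1, a thyroid regulator, had 41.1 at 38.8 kb upstream against 18.2 at its promoter, and Foxl1 had 36.3 at 190.9 kb downstream against 21.1. Foxk1 went the other way, with 29.7 at 33.5 kb upstream against 46.0 at its promoter. Irx5 had 25.4, Foxd1 21.8, Lhx5 18.3, Sox17 16.1, Foxo1 15.9, Foxi3 14.0 and Six2 13.6. The Foxe1 peak lay 0.458 kb from a RefSeq start of Gm12447, and the Six2 peak within 1 kb of starts of Gm29418 and Gm4718. A pair of peaks 49.4 and 50.5 kb upstream of Foxp4 had 23.4 and 15.8. Six3os1, an antisense RNA gene taken in by its symbol, had 13.8 and 11.0.

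Synapse and ion channel genes, counted by a set of symbol prefixes that leaves out others such as Cplx2, took 5 distant peaks (1.39%), against 2.01% of all peaks, with a median fold of 25.7 and 4 of 5 at or over 20, where 30.6% of distant peaks and 54.7% of all peaks were. Besides Nlgn3, these were Gria2, the AMPA receptor subunit that sets calcium permeability, with 36.1 at 228.8 kb downstream against 15.7 at its promoter, and Gria4, another AMPA receptor subunit, with 25.7. The potassium channel genes Kcnk1 and Kcnb2 had 20.6 and 19.5. Axon guidance genes took 2, Robo3 with 20.7 and the ephrin gene Efnb1 with 19.1 (0.556%, against 0.715% of all peaks). Cadherins took 2, Fat3 with 19.1 and Cdh6 with 18.5 (0.556%, against 0.263%).

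KLF13's own family had 4 distant peaks (1.11%, 0.304 to 2.82%), against 0.368% of all peaks. Klf4 had a fold of 22.5 at 118.7 kb upstream, against 45.2 at its promoter. Klf12, Klf17 and Sp3 had 18.9 at 134.8 kb upstream, 15.7 at 36.0 kb downstream and 8.16 at 32.2 kb upstream, and none of these 3 had an assigned promoter peak. The Klf12 peak lies inside the RefSeq bounds of Klf12, so it is intragenic there. Of the clock genes 1 was taken, Hlf, with 13.1 at 26.9 kb upstream against 31.2 at its promoter (0.278%, against 0.168% of all peaks).

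Genes with symbols that begin with Zfp or Zbtb, which name zinc finger proteins mostly of the C2H2 kind, took 11 distant peaks (3.06%, against 2.05%). The highest were Zfpm1, a GATA cofactor gene, at 32.6, Zfp706 at 29.4, Zfp423 at 22.3 and Zbtb18, which encodes a transcriptional repressor, at 21.8. Zfp345, Zfp947 and Zfp800 had 18.8, 16.3 and 15.5, Zbtb43 had 12.5 and 12.2, and Zfp958 had 6.88 and 5.85. MicroRNA genes took 12 (3.33%, against 1.45%), with folds from 4.35 to 24.9, the highest at Mir1892, Mir6540, Mir3475 and Mir3105 with 24.9, 24.1, 22.5 and 20.0. Mir9-3hg, the host gene of a neuronal microRNA, was the only one of them with an assigned promoter peak, with 13.8 at the distant peak against 32.1. The others were Mir5119 (18.4), Mir152 (17.3), Mir7j (14.0), Mir6356 (12.6 and 8.64) and Mir101c (5.79 and 4.35).

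Chemosensory receptor genes, which hippocampal cells are not known for, took 7 (1.94%, 0.785 to 3.97%), against 0.158% of all peaks. Of the 7, 5 had a fold under 8 and lay below 3.5 Mb, on chromosome 18 at Vmn1r238 (6.72, 3.39 and 2.40) and on chromosome 4 at Vmn1r2 (6.70 and 6.42). The others were Vmn1r3 with 17.7, also below 3.5 Mb on chromosome 4 and over the start of Gm46840, and Olfr449 with 22.1. Unnamed gene models took 59 (16.4%, 12.7 to 20.6%), against 4.56% of all peaks, with a median fold of 15.3 and 13 under 8.

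Several genes drew more than 1 distant peak. In all, 43 genes had at least 2 and 11 had at least 3. Apart from Grpr, Lrrc4c, Rnf138rt1, S100g, Gm6194 and Vmn1r238, whose peaks had folds under 9, the genes with 3 were Pax2 (21.6 to 42.7), 5730507C01Rik (21.2 to 30.8), Psd2, which encodes an exchange factor for ARF proteins (10.9 to 28.0), Srd5a2, a steroid 5-alpha reductase gene (8.54 to 22.9), and Rragc, which relays amino acid signals to mTOR (10.6 to 17.96).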

How the data were processed

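Peaks of 4 KLF13 ChSP and 4 input libraries were deposited as one list, called with PePr by its name. The submitters' processing notes name as tools BWA 0.7.17-r1188 and FastQC 0.11.3, next HOMER 4.9.1 and ChIPseeker 1.16.1, with GRCm38 as build. The sources used here do not say which step used each, or how libraries were scaled. The deposited fold is the authors' linear ratio of ChSP over input, and the deposited p-value is theirs too. The deposited score, proportional to that fold, was left aside. Peak annotation, assigned gene and distance to TSS are the authors', per the file headers. A peak scored by p depends on read coverage and width as well as fold, and read depth is unknown.

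Distant peaks were taken by class and distance. The members and the gene lists (symbol prefixes) were chosen with earlier results of these data known. Named genes were the 12 highest and 5 lowest folds, the 5 farthest, 5 widest and 5 smallest p, the 4 on each side of 25 kb, genes with 3 or more peaks, and members of the lists (for unnamed gene models, counts only). Genes with a RefSeq start near a peak were named after their values were seen. RefSeq starts came from the promoter windows, which exclude chromosome 18 and lack some starts elsewhere. Gene bounds came from the RefSeq gene table, in which all 360 peaks had an assigned gene. Clusters, the stretch of X and the 8-fold and 3.5 Mb limits were chosen after seeing the data. The distance and cluster steps were tested on simulated peaks. Intervals are exact binomial or order-statistic 95% intervals. Motif and base composition over whole peaks were planned and not run. Work used scipy 1.17.1, numpy 2.4.6, pandas 2.3.3 and matplotlib 3.10.9 under Python 3.11.15.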

Additional observations from a re-analysis of the deposited data

How the results depend on the processing

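No paired analysis was possible because each peak has a single fold for the 8 libraries together, and for that reason no library could be left out. The median fold of distant peaks, 15.9, stayed inside its 95% interval without the 5% widest peaks, with peaks closer than 1 kb merged, over 50 kb, without unnamed gene models, without chromosome X, without the X stretch, and without peaks near a RefSeq start or on chromosome 18. It came to 21.6 in the 4753 peaks of smallest p, and to 17.7 without peaks that had another distant peak within 50 kb. The share with a fold of at least 20 was 57.4% and 37.2% under these settings. The distant share of the list was 2.38% over 50 kb, 1.43% among the smallest p, 2.63% without neighbouring distant peaks, 3.32% without unnamed gene models, and 3.13% without peaks near a RefSeq start or on chromosome 18. All but the unnamed-model setting and the smallest p lower that share by construction, since they take out distant peaks alone. With 5 kb in place of 1 kb, 21.7% of distant peaks outside chromosome 18 had a start in the RefSeq windows nearby. The cause of the other changes was not tested. The settings without the X stretch, without the Lrrc4c peaks and without peaks near a RefSeq start were chosen after seeing the data. The planned GC box and base composition alternatives were not run, since no genome sequence was used. With 1 fold per peak, nothing here shows how far a value would move between cultures.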
